A study of Mus musculus with 8 samples.

Results

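The genes described here are 10 genes of the response to foreign chemicals and to oxidative stress, taken by name from the array measurements of whisker follicles. They are Cyp1a1, Cyp1b1, Ahr, Ahrr and Tiparp, called here the aryl hydrocarbon receptor (AHR) arm, Nqo1, Hmox1, Gclm and Gsta4, called here the NRF2 arm, and Sult1a1, a conjugating enzyme. All 10 are on the array, with 15 probes in all, and each is represented by its probe with the highest mean. They stand among the 37018 genes and unnamed transcripts of the array, of which 25353 were bright enough to be tested, all 10 among them. Every chosen probe was well above background on 8 of 8 arrays. The first group is female ApcMin/+ mice given the compound E7386 at 30 mg/kg by mouth, 2 times per day. Dosing began when the mice were 8 weeks old and ran for 4 cycles, each made of 5 dosing days and then 2 free days. The second group is female ApcMin/+ mice given vehicle. Both groups thus carry the Min allele of Apc, a truncating mutation of a scaffold protein needed for the breakdown of beta-catenin, and no group with wild-type Apc was used here. Whisker follicles were taken 6 h after the last dose, and each group has 4 samples, each on its own 1-colour array. E7386 is known as a small molecule that blocks the interaction between beta-catenin and CBP, a transcriptional coactivator. The comparison asks which transcripts differ in follicles after repeated dosing. Whether each sample is a different mouse is not given by the labels, so the p-values cover the sample-to-sample spread alone, which may be technical.

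AHR is a transcription factor of the bHLH-PAS family that is held in the cytoplasm in a complex with HSP90. When a ligand binds, it enters the nucleus, pairs with ARNT and binds DNA at the core letters GCGTG, and its classical targets are the cytochromes P450 of family CYP1, its own repressor AHRR and the ADP-ribosyltransferase TIPARP. NRF2, encoded by Nfe2l2, is kept low by KEAP1 until electrophiles or oxidants modify KEAP1, and it then pairs with small MAF proteins to induce enzymes of glutathione synthesis, quinone reduction and haem breakdown. In skin both pathways handle chemicals that reach the epidermis, the sebaceous gland and the hair follicle.

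Values below are log2 of the processed signal minus the 75th percentile of the array, called the normalised log2 signal, and changes are E7386 minus vehicle on that scale. A gene was called where limma's test gave a Benjamini-Hochberg adjusted p under 0.05 over all 25353 genes. By that rule 191 genes (0.753%) were called higher and 93 (0.367%) lower with E7386, which is 1.12% of the genes in either direction. With each array scaled by its median, 52.3% of the called genes were higher, against 67.3% with the 75th percentile. All 8 arrays lie on 1 slide, with E7386 in row 2 and vehicle in row 1, so row and treatment cannot be told apart. Arrays with the same replicate number share a slide column, which holds 1 array of each group. Between 61.5% and 61.9% of the spots for mouse transcripts were well above background on E7386 arrays, against 62.2% to 64.7% on vehicle arrays. Defining genes of the hair shaft and matrix (10 of 10 on the array) and of the root sheath and basal layer (7 of 7) were above background, as were those of skeletal muscle (9 of 9) and macrophages (7 of 7). Summed muscle signal ran from 117.0 to 744.0 array units on E7386 arrays and from 87.7 to 662.7 on vehicle arrays, an array unit being the 75th percentile of that array. These tissue pieces hold several cell types, so fewer cells of a type and less RNA per cell cannot be told apart.

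Of the 10 genes, Sult1a1 and Cyp1b1 rose with E7386 and none fell, where 0.753% of all genes were called higher and 0.367% lower. The members and the lists below were chosen with earlier results of these data known. Their counts beside the shares of all genes are thus descriptions and no test. The groups of arrays did not overlap for these 2 genes, as for 4.82% of all genes in the higher and 5.7% in the lower direction. Sult1a1 was 2.12-fold higher (95% interval 1.85 to 2.42) and Cyp1b1 1.76-fold higher (95% interval 1.41 to 2.20). The other 8 genes did not pass the test, with changes from -0.18 for Gsta4 to 0.30 for Cyp1a1. The median change was 0.12 over the 5 genes of the AHR arm, of which 1 was called, and 0.032 over the 4 genes of the NRF2 arm, of which 0 were called. Over all genes tested the median change was 0.0088. At an unadjusted p under 0.05, 0 genes of the NRF2 arm and 1 of the AHR arm passed, as did 15.2% of all genes. The medians over each arm per array overlapped between groups, at 1.49 to 1.76 on E7386 arrays and 1.33 to 1.68 on vehicle arrays for the AHR arm, and at -0.31 to -0.061 and -0.28 to -0.045 for the NRF2 arm. On every array the median of the AHR arm was the signal of Tiparp, and its median change of 0.12 was that of Tiparp. A rise of Cyp1b1, which lay above Tiparp on every array, could not move these medians.

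**Figure D1:**
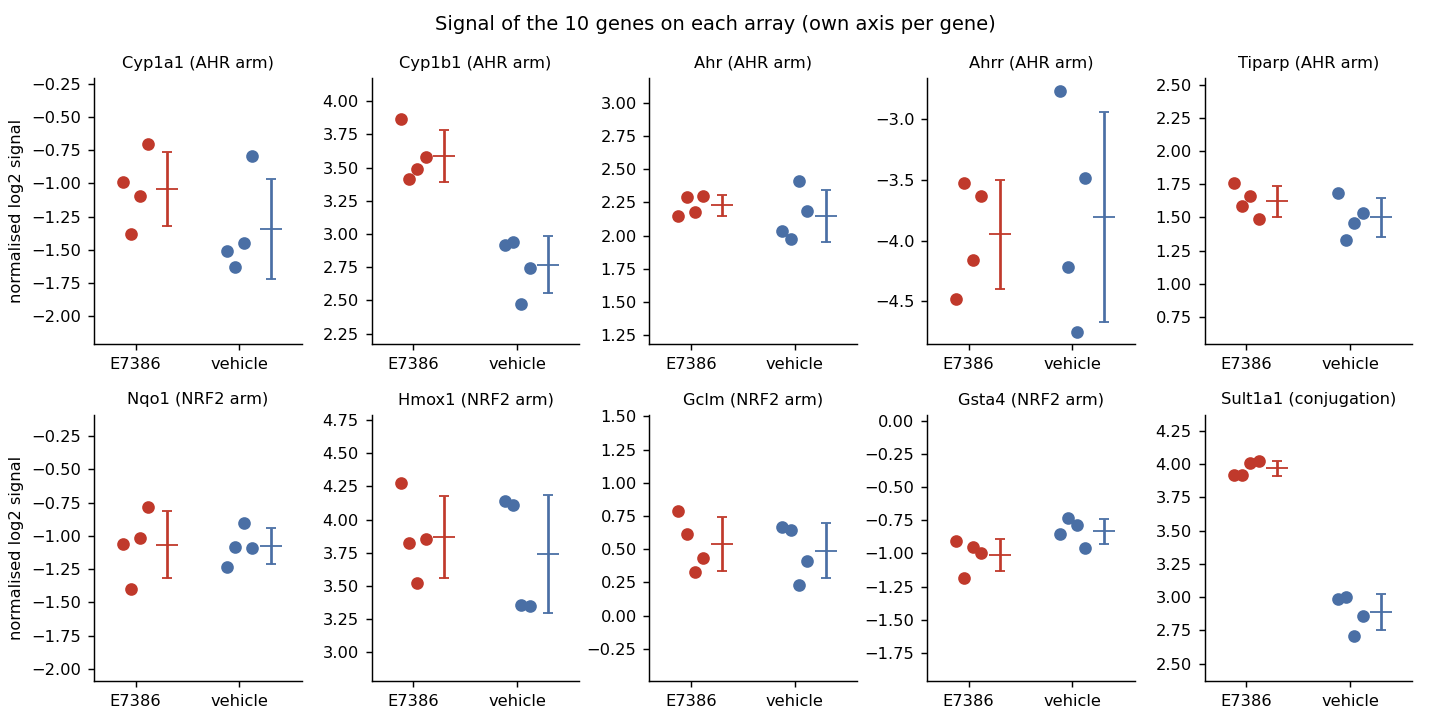
Normalised log2 signal (y axis, own range for each gene) of the 10 genes on the 4 E7386 arrays (red) and the 4 vehicle arrays (blue), with the mean and SD of each group at the right of its points. The groups lie apart for Sult1a1 and Cyp1b1 and overlap for the other 8 genes.

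Sult1a1 encodes a cytosolic sulfotransferase that adds sulfate to small phenols, including drugs and their hydroxylated metabolites. Its signal was 3.92, 3.92, 4.01 and 4.03 on E7386 arrays 1 to 4, against 2.99, 3.00, 2.71 and 2.85 on vehicle arrays 1 to 4. The lowest E7386 array lay well above the highest vehicle array, and the 4 E7386 arrays lay closer together than the vehicle arrays. The group means were 3.97 ± 0.059 with E7386 and 2.89 ± 0.13 with vehicle (SD, n = 4 each), a change of 1.08 (SE 0.085, limma adjusted p = 0.00131). The other Sult1a1 probe gave 3.83, 3.85, 3.96 and 3.79 on E7386 arrays, against 2.88, 2.86, 2.54 and 2.67 on vehicle arrays. That probe rose by 1.12, and both probes were called when every detected probe was tested on its own (limma adjusted p = 0.00161 and 0.00246 over 34112 probes). The call held whichever array was left out, with adjusted p from 0.00591 to 0.0107, and with the slide column as a block (adjusted p = 0.0495).

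Cyp1b1 encodes a cytochrome P450 that oxidises polycyclic hydrocarbons and oestrogens and is, unlike most xenobiotic P450 enzymes, prominent outside the liver. It had signals of 3.87, 3.41, 3.49 and 3.58 on E7386 arrays 1 to 4, against 2.92, 2.94, 2.47 and 2.75 on vehicle arrays 1 to 4. The groups did not overlap, with E7386 replicate 1 the highest and vehicle replicate 3 the lowest. Means were 3.59 ± 0.20 with E7386 and 2.77 ± 0.22 with vehicle (SD, n = 4 each), a change of 0.82 (SE 0.14, limma adjusted p = 0.0395). This call is less firm than that of Sult1a1. It was lost whichever array was left out, with changes of 0.72 to 0.87 and adjusted p from 0.065 (without E7386 replicate 1) to 0.117 (without E7386 replicate 4). It was also lost with array medians (adjusted p = 0.0672) with no filter on dim probes (adjusted p = 0.0822) and with the slide column, that is the replicate number, as a block (adjusted p = 0.0947). The array has 1 probe for the gene.

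**Figure D2:**
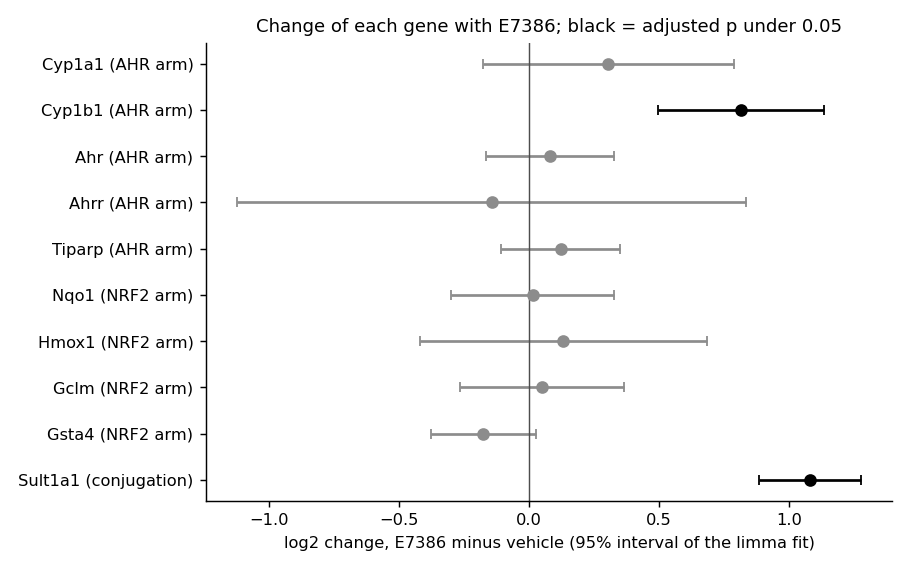
Log2 change, E7386 minus vehicle (x axis), of each of the 10 genes (y axis, by arm) with the 95% interval of the limma fit over 4 arrays per group. The intervals of Sult1a1 (0.88 to 1.28) and Cyp1b1 (0.50 to 1.14), in black, lie above 0, and those of the 8 genes in grey span it.

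**Figure D3:**
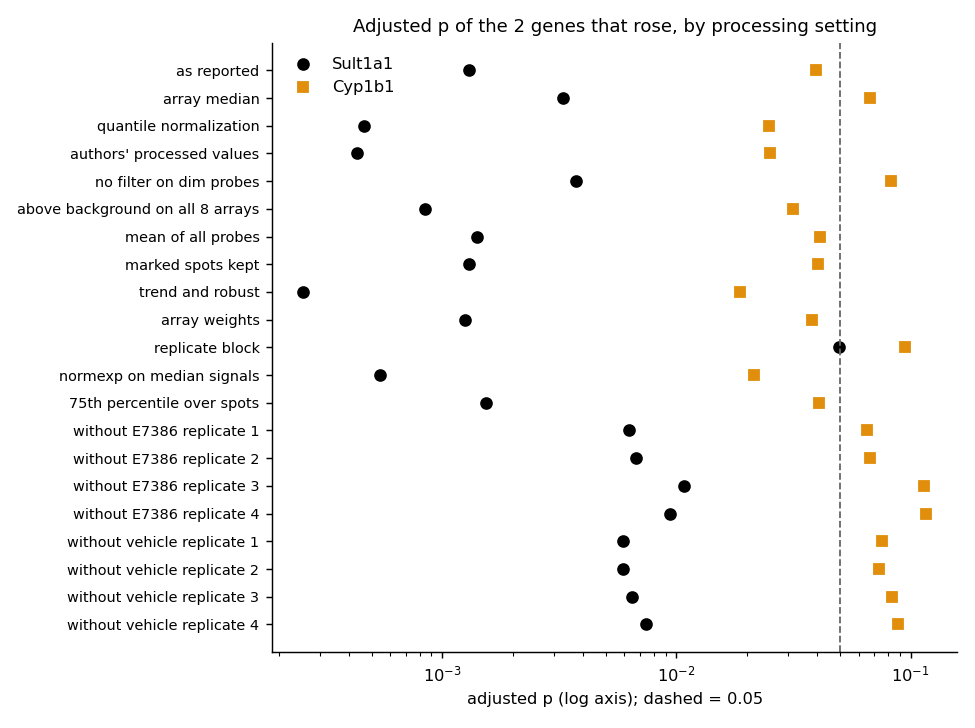
Adjusted p (x axis, log scale) of Sult1a1 (black circles) and Cyp1b1 (orange squares) as reported and under each of 20 other processing settings (y axis). Sult1a1 stayed under 0.05 in all 20 and Cyp1b1 in 9.

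Summed markers of sebaceous cells, of fat and of hair shaft and matrix had higher means with E7386, as did these 2 genes. The sebaceous markers came to 15.61 to 20.1 array units on E7386 arrays, against 13.1 to 15.56 on vehicle arrays, without overlap. Of the 10 markers, 9 were above background on some array and 1 was called higher. The single markers differed, with Dgat2l6 at 0.77 and Awat1 at 0.57 but the brightest, Elovl3, at 0.13 and Pparg at 0.022. Fasn, the only tested marker with a lower mean, was at -0.38 without overlap. The median change of the tested markers was 0.16. The summed hair shaft and matrix markers were at 2195 to 3549 array units with E7386 and 1244 to 3103 with vehicle. The summed fat markers were at 67.4 to 118.2 and 46.8 to 93.7, both lists with overlap. The mean sum with E7386 over that with vehicle was 1.304 for fat and 1.252 for hair shaft and matrix, against 1.211 for sebaceous markers. The median changes of the fat and of the hair shaft and matrix markers were 0.371 and 0.374, and 0 genes of either list were called. Of the fat markers, Plin4 was at 1.553 without overlap, and Plin1 had a lower mean, at -0.099. Fibroblast markers, at 564.8 to 646.2 with E7386 and 546.6 to 714.4 with vehicle, overlapped too. The part of these cell types in the rise of Sult1a1 and Cyp1b1 was not tested.

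The promoters of the 2 genes that rose are shown with those of Cyp1a1, the best known AHR target, and Gclm, the member whose window holds the letters of an NRF2 element. Each sequence is the 250 bases before the start of the gene, from RefSeq on GRCm38.p6, written 5′ to 3′ on the strand of the gene. Capitals mark GCGTG, the core of the AHR-ARNT element, and TGACNNNGC, the core of the antioxidant response element bound by NRF2 with a small MAF protein, each searched on both strands.
Sult1a1 (chr7:126676419-126676668, minus strand): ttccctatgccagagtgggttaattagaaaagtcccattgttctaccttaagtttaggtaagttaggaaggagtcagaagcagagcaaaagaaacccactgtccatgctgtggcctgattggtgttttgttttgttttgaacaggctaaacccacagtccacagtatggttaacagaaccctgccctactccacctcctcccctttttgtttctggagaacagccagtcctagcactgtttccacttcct
Cyp1b1 (chr17:79715062-79715311, minus strand): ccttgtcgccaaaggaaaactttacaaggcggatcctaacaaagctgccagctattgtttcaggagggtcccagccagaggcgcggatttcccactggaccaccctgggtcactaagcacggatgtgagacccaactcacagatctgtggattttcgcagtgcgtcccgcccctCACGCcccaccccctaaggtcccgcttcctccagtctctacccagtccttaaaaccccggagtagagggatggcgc
Cyp1a1 (chr9:57697363-57697612, plus strand): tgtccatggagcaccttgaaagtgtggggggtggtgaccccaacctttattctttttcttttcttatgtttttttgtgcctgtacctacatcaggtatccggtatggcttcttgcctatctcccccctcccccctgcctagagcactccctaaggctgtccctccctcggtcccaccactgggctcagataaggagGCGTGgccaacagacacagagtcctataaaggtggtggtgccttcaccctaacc
Gclm (chr3:122245307-122245556, plus strand): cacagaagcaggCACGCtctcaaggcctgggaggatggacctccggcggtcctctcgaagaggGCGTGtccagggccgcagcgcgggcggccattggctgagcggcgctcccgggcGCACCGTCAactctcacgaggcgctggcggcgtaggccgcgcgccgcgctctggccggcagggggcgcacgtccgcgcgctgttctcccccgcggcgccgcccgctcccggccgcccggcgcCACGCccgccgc
The Cyp1b1 window holds GCGTG 1 time, on the opposite strand and 76 bases before the start, and the Cyp1a1 window 1 time, 54 bases before the start. Neither motif is in the Sult1a1 window. In the Gclm window GCGTG occurs 3 times and TGACNNNGC 1 time, without overlap. Of the 7 members with a sequence, 5 (Cyp1a1, Cyp1b1, Ahrr, Tiparp and Gclm) hold GCGTG, and 28.2% of all 32851 promoter windows of this length do. TGACNNNGC is in 1 of the 7 and in 10.2% of all windows. Ahr, Hmox1 and Gsta4 had no sequence to search. A match is a run of letters and not a measured binding site. Bases farther from the start were not searched, so a window without a motif does not show that the gene lacks one.

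Cyp1a1, the P450 whose mRNA is most often used as a readout of AHR activity, did not pass the test. Its signals were -0.99, -1.38, -1.10 and -0.70 on E7386 arrays 1 to 4, against -1.51, -1.63, -1.45 and -0.79 on vehicle arrays 1 to 4. Of the vehicle arrays, 1 to 3 lay below every E7386 array, while vehicle replicate 4 lay above 3 of the 4. Means were -1.04 ± 0.28 with E7386 and -1.35 ± 0.38 with vehicle (SD, n = 4 each), a change of 0.30 (95% interval -0.18 to 0.79, limma adjusted p = 0.544). The change of Cyp1b1 exceeded that of Cyp1a1 by 0.51, a difference that did not pass an exact two-sided permutation test over arrays (p = 0.114, where 4 against 4 can give 0.0286 at the lowest). Cyp1a2, the hepatic member of the family, was well above background on 0 of the 8 arrays.

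Ahr, the receptor itself, was nearly level between groups, at 2.15, 2.29, 2.18 and 2.30 on E7386 arrays and 2.03, 1.98, 2.41 and 2.18 on vehicle arrays. The change was 0.079 (SE 0.11, limma adjusted p = 0.786). For this brighter probe the 95% interval of -0.17 to 0.33 excludes a change of the size of Cyp1b1's. The dimmer Ahr probe gave a change of 0.25 with a wider SE of 0.27, and no interval was taken for it. Tiparp, which ADP-ribosylates AHR and ends its activity, had 1.76, 1.58, 1.66 and 1.49 on E7386 arrays and 1.68, 1.33, 1.46 and 1.53 on vehicle arrays. Its change was 0.12 (95% interval -0.11 to 0.35, limma adjusted p = 0.615), and the other probe gave 0.082. Ahrr, which competes with AHR for ARNT, was dim and widely spread. It lay between -4.48 and -3.53 on E7386 arrays and between -4.76 and -2.76 on vehicle arrays, with a change of -0.14 (SE 0.43, limma adjusted p = 0.918), and its other probe was not above background on any array. The sign of the Ahrr change turned with probes averaged (0.089), with normexp (0.014), and without E7386 replicate 1 or vehicle replicate 1. The average takes in the probe that was not above background, whose change was 0.32. Among other genes not above background on any array, Cyp1a2 was at 0.33 and Sult1b1 at 0.32, though Sult1d1 was at -0.44.

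In the list of receptor machinery, which holds AHR with its partners, co-chaperones and coactivators, 0 of 12 tested genes were called, and the median change was 0.019. Arnt was at 0.069 (SE 0.093) by the brighter probe and at -0.25 by the dimmer. The lowest values belonged to Hsp90aa1, the inducible HSP90 chaperone, at -0.26 (SE 0.078, limma adjusted p = 0.174), and to Ptges3, the co-chaperone p23, at -0.22 (SE 0.084, limma adjusted p = 0.267). Both had groups of arrays that did not overlap, as did 10.5% of all genes. Of the list of AHR targets, 1 of 12 tested genes (Cyp1b1) was called higher and 0 lower, against 0.753% and 0.367% of all genes. The median change was 0.089. Aldh3a1, an aldehyde dehydrogenase of stratified epithelia, was at 0.048 (SE 0.23), and Cyp2s1, a P450 of epithelia, at 0.27 (SE 0.13, limma adjusted p = 0.378).

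**Figure D4:**
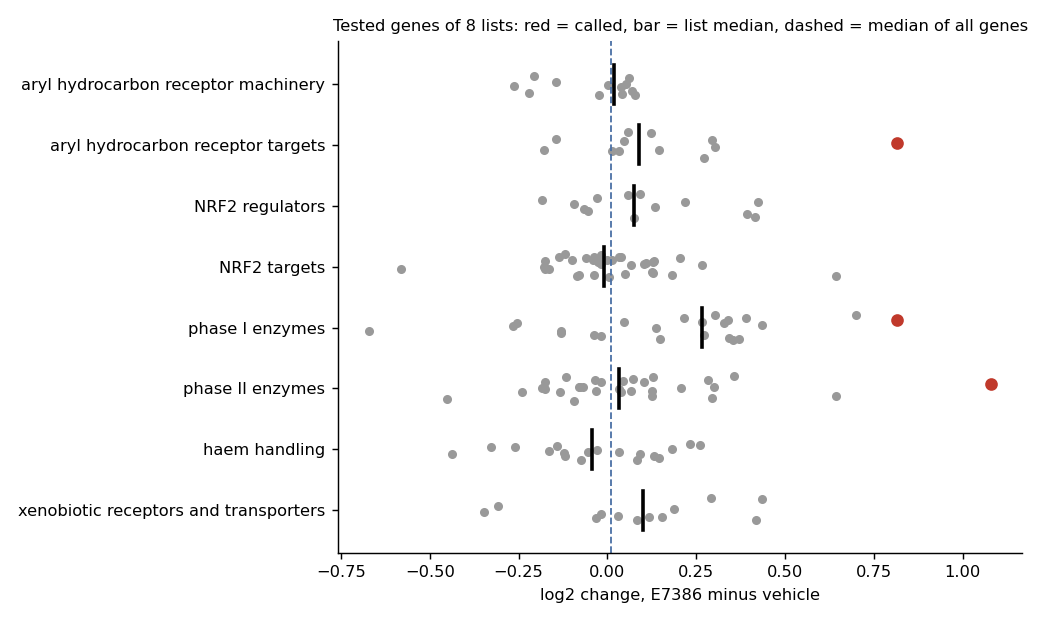
Log2 change, E7386 minus vehicle (x axis), of every tested gene (points) in 8 lists (y axis), with the median of each list (black bar) and the median of all genes, 0.0088 (dashed). The called genes, in red, are Cyp1b1 in 2 lists and Sult1a1 in 1.

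None of the 4 genes of the NRF2 arm was called. Nqo1, a quinone reductase that is induced by NRF2 and also by AHR, had -1.06, -1.40, -1.02 and -0.78 on E7386 arrays 1 to 4, against -1.23, -1.09, -0.91 and -1.09 on vehicle arrays 1 to 4. The E7386 arrays spanned the vehicle arrays on both sides. The change of 0.013 (95% interval -0.30 to 0.33, limma adjusted p = 0.982) turned sign with array medians, with quantile normalization and with array weights. Gsta4, a glutathione transferase that detoxifies the lipid peroxidation product 4-hydroxynonenal, lay between -1.18 and -0.91 on E7386 arrays and between -0.96 and -0.74 on vehicle arrays, with overlap. Its change of -0.18 (SE 0.087, limma adjusted p = 0.388) was the lowest of the 10.

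Hmox1 encodes haem oxygenase 1, which opens haem to biliverdin, carbon monoxide and iron and is induced when NRF2 displaces the repressor BACH1. Its signals were 4.28, 3.82, 3.53 and 3.85 on E7386 arrays 1 to 4, against 4.14, 4.11, 3.36 and 3.35 on vehicle arrays 1 to 4. The vehicle arrays fell into a high and a low pair, and the change was 0.13 (95% interval -0.42 to 0.68, limma adjusted p = 0.854). Gclm, the modifier subunit of the enzyme that starts glutathione synthesis, had 0.79, 0.61, 0.33 and 0.43 with E7386 and 0.66, 0.65, 0.23 and 0.41 with vehicle. Its change was 0.050 (95% interval -0.26 to 0.37, limma adjusted p = 0.909), and -0.027 with array medians. The 3 arrays highest for Hmox1 (E7386 replicate 1 and vehicle replicates 1 and 2) were also the 3 highest for Gclm. Over the 8 arrays the signals of both had Pearson's r = 0.913 and Spearman's rho = 0.905, with exact two-sided permutation p = 0.00216 and 0.00456, and 0.0608 and 0.103 after Benjamini-Hochberg adjustment over the 45 pairs of members. With group means removed r was 0.912, and without the 2 arrays farthest from the median of Hmox1 it was 0.922 over 6. Vehicle replicates 3 and 4, the lowest for Hmox1, also had the lowest summed hair shaft and matrix markers, at 1244 and 1510.0 array units, against 2195 to 3549 on the other 6 arrays. By this sum the other arrays did not keep this order. E7386 replicate 4 had the highest sum, 3549, with Hmox1 at 3.85 and Gclm at 0.43. E7386 replicate 1, the highest for both genes, had a sum of 2543. The brightest genes in the sum were the keratins Krt86 and Krt33a. Msx2 and Lef1 are dimmer genes of that list. Msx2 had 3.88, 3.48, 3.21 and 3.54 on E7386 arrays 1 to 4, against 3.90, 3.78, 3.07 and 3.00 on vehicle arrays. Lef1, named after its values were seen, had 2.01, 1.64, 1.30 and 1.65 with E7386 and 2.10, 1.83, 1.38 and 1.26 with vehicle. The part of hair matrix content in the spread of Hmox1 and Gclm was not tested.

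**Figure D5:**
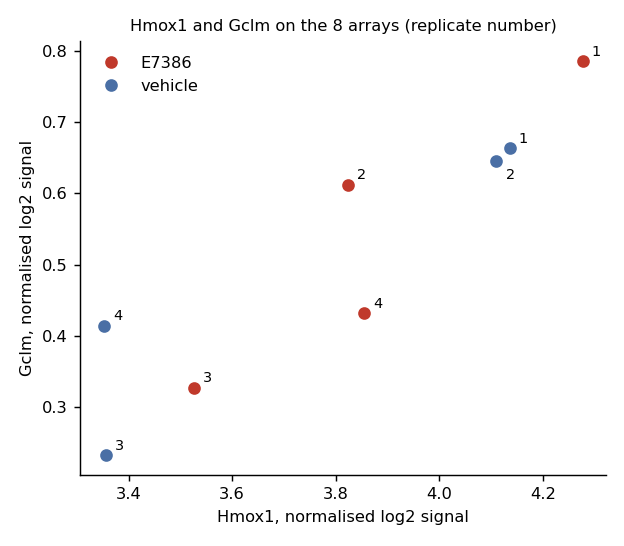
Normalised log2 signal of Hmox1 (x axis) against that of Gclm (y axis) on the 4 E7386 arrays (red) and the 4 vehicle arrays (blue), with replicate numbers. Both groups run along the same rising band, with E7386 replicate 1 at the top and vehicle replicate 3 at the bottom.

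Sult1a1 and Cyp1b1 was the pair with the highest Pearson's r, at 0.942 (rho = 0.929, exact two-sided permutation p = 0.0027 and 0.00223, and 0.0608 and 0.1 adjusted over the 45 pairs). Both differ between the groups, so the pooled r and its p-values hold the treatment difference and test no link beyond it. With group means removed r was 0.594, for which no p was taken. Among 15240 named genes above background on all 8 arrays, those most like Cyp1b1 were Hsd11b1 (Pearson's r = 0.995), which regenerates active glucocorticoids, Gna14 (0.984) and Klhdc9 (0.973). Those most like Hmox1 were Msx2, a homeobox factor of hair matrix (0.992), Galnt6 (0.986) and Smarcc1 (0.984). Depp1 (0.971), Gm3219 (0.934) and Ndor1 (0.923) were nearest to Cyp1a1, and 2410018L13Rik (0.960), Nsrp1 (0.954) and Hoxb3 (0.945) to Nqo1. Group means were left in for these values of r, so they hold any difference between the groups. Hsd11b1, Gna14 and Klhdc9 had changes of 0.46, 0.52 and 0.54, and Depp1 one of 0.69. These values of r are descriptions over 8 arrays, which share the scaling of each array. With so many genes high values of r are common.

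Among the regulators of NRF2, Nfe2l2 was at 0.057 (SE 0.094), Keap1 at -0.029 (SE 0.066), Bach1 at 0.091 (SE 0.11) and Mafg at -0.065 (SE 0.081). The small MAF genes Mafk, at 0.43 (SE 0.11, limma adjusted p = 0.115), and Maff, at 0.42 (SE 0.14, limma adjusted p = 0.22), had groups that did not overlap, as did 4.82% of all genes in that direction, and did not pass. Bach2, a relative of Bach1 named after its values were seen, was at 0.39 (SE 0.20, limma adjusted p = 0.397) with overlapping groups. Of 13 tested regulators 0 were called, and the median change was 0.075.

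Of 34 tested NRF2 targets 0 were called, 16 had higher and 18 lower means, and the median change was -0.0092. Catalytic Gclc was at 0.20 (SE 0.15), the cystine transporter Slc7a11 at 0.13 (SE 0.37), thioredoxin reductase Txnrd1 at -0.026 (SE 0.16) and sulfiredoxin Srxn1 at -0.060 (SE 0.24). At an unadjusted p under 0.05 there were 3 of the 34, all with groups that did not overlap. Over all genes the shares were higher, at 15.2% for that p and 10.5% without overlap, so the count is no result about the list. Gsta3, a class alpha glutathione transferase, had 2.34 ± 0.19 with E7386 and 1.70 ± 0.24 with vehicle (SD, n = 4 each), a change of 0.64 (SE 0.14, limma adjusted p = 0.0889) with 0.62 on the other probe. Gsr, which recycles oxidised glutathione, had 2.52 ± 0.16 with E7386 and 3.10 ± 0.24 with vehicle, a change of -0.58 (SE 0.13, limma adjusted p = 0.0969) with -0.55 on the other probe. Gstp1, named after its values were seen, was at -0.17 (limma adjusted p = 0.302). Gsta3 belongs to a family of related genes, and shared signal between their probes was not tested.

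Phase I enzymes oxidise, reduce or hydrolyse foreign compounds. Among 23 tested, 1 (Cyp1b1) was called higher and 0 lower, against 0.753% and 0.367% of all genes. The median change was 0.27, with 16 higher and 7 lower means, and the groups did not overlap for 6 genes (4 higher, 2 lower), as for 10.5% of all genes (4.82% higher, 5.7% lower). Next to Cyp1b1, the flavin monooxygenase Fmo2 was at 0.70 (SE 0.14, limma adjusted p = 0.0638), and it passed in 2 of the 20 alternatives (adjusted p from 0.0361 to 0.186). Its signals were 1.22, 1.00, 1.31 and 1.48 on E7386 arrays, against 0.28, 0.61, 0.80 and 0.51 on vehicle arrays. Fmo1, named after its values were seen, was at 0.39 (limma adjusted p = 0.0731). Cyp2e1, the ethanol-oxidising P450, was at -0.67 (SE 0.21, limma adjusted p = 0.196), and Por, the reductase that feeds electrons to microsomal P450 enzymes, at 0.14 (SE 0.081).

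Phase II enzymes attach sulfate, glucuronate, glutathione, methyl or acetyl groups. Of 31 tested, 1 (Sult1a1) was called higher and 0 lower, against 0.753% and 0.367% of all genes. The median change was 0.033. Gstt1 and Gstm6 had the lowest values, at -0.45 (SE 0.15, limma adjusted p = 0.215) and -0.24 (SE 0.13). Sulfotransferases Sult1b1, Sult1d1 and Sult1e1 were not well above background on any array, and Sult1c2 on 1 E7386 and 1 vehicle array.

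In haem handling 0 of 18 tested genes were called, with a median change of -0.042. Alas1, the first enzyme of haem synthesis in most tissues, was at -0.26 (SE 0.12) by the brighter probe and -0.022 by the dimmer, Hmox2 at -0.031 (SE 0.073) and Blvrb at -0.12 (SE 0.14). The haem synthesis enzymes Alad, at -0.44 (SE 0.10, limma adjusted p = 0.0961), and Uros, at -0.33 (SE 0.074, limma adjusted p = 0.0922), had groups that did not overlap, as did 5.7% of all genes in that direction. Among 12 tested xenobiotic receptors and transporters 0 were called, and the median change was 0.10. At an unadjusted limma p under 0.05 there were 5 of the 12, and groups did not overlap for 4 (3 higher, 1 lower). Over all genes the shares were 15.2% and 10.5%. Abcg2, an efflux pump of many drugs and of porphyrins, had 3.33 ± 0.050 with E7386 and 2.91 ± 0.12 with vehicle (SD, n = 4 each), a change of 0.42 (SE 0.080, limma adjusted p = 0.0562). It passed in 3 of the 20 alternatives, with adjusted p from 0.025 to 0.158 over all 20. Rxra, the shared partner of many nuclear receptors, was at 0.43 (SE 0.10, limma adjusted p = 0.104), and the prostaglandin transporter Slco2a1 at -0.35 (SE 0.082, limma adjusted p = 0.101). Nr1i2, which encodes the pregnane X receptor, was above background on 0 E7386 arrays and 1 vehicle array.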

How the data were processed

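RNA was turned into Cy3-labelled cRNA, per the labels' protocols, and hybridised to 1-colour Agilent arrays designed on mm9, per the file headers. Spot intensities were deposited by the authors as scanner output of Agilent Feature Extraction. Its version is 11.5.1.1 per the file headers and 11 per the submitters' processing notes, and its processed signal, already corrected for background, was used. The authors' deposited value table holds log2 values of the same arrays with equal sorted values in every column (median 5.31), so the columns were quantile normalised, and it was used as an alternative.

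Spots marked non-uniform (2 to 14 per array) were set to missing, spots of a probe were averaged as log2, and each array's 75th percentile over 55681 probes (397.3 to 569.1) was subtracted. Accessions were matched to symbols through a RefSeq table of GRCm38.p6, which named 27509 probes and left 28172 unnamed. Each gene kept its brightest probe and was tested if 3 or more of the 4 arrays of either group had that probe well above background. Tests used limma 3.58.1 (lmFit, eBayes; R 4.3.3) with Benjamini-Hochberg adjustment over 25353 genes. The fit was tested on simulated data with normal noise that was independent between genes. It recovered 38.6% of log2 changes of 0.5 and 76.5% of those of 1, and 5.53% of its calls were false. A gene that was not called may thus have changed by such amounts. With 8 arrays, precision is limited by their number.

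The members, the lists and the rule for naming genes were chosen with earlier results of these data known. The rule names the 10 members, 18 fixed genes of these pathways, every called gene of a list and the 2 largest rises and falls of each, of which the text gives a selection, and the 3 genes most like Cyp1a1, Cyp1b1, Nqo1 and Hmox1. Alternatives were array scaling, the authors' values, the dim-probe filter, averaging of probes, marked spots, the variance model, array weights, the replicate number as a block and leaving out each array. Normexp on mean signals was planned and not run, since the columns used here are medians, and normexp (offset 50) on those medians and a percentile over spots were added after seeing the data.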

Additional observations from a re-analysis of the deposited data

How the results depend on the processing

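The calls of Sult1a1 held in all 20 alternatives, with changes of 1.00 to 1.12 and its highest adjusted p, 0.0495, with the replicate number as a block, and those of Cyp1b1 in 9. Cyp1b1 lost its call with array medians (0.74), with no filter on dim probes (0.82, where 37018 genes were tested) and with the replicate number as a block (0.82), and without any 1 of the 8 arrays (0.72 to 0.87). The number of members called was 1 in those same settings, and 1 to 1 when an array was left out. The 8 lists together held 2 called genes, against 1 with array medians, with no filter and with the block, 5 with trend and robust options, 5 with normexp on median signals, 3 with only genes above background on all 8 arrays, 3 with the percentile over spots, and 1 to 1 when an array was left out. Over all genes 284 were called, against 153 (112 higher, 41 lower) with no filter and 88 to 240 (67 to 158 higher, 21 to 82 lower) when an array was left out, the highest without E7386 replicate 1 and 157 or fewer without any other. Lower calls numbered 158 with trend and robust options and 141 with normexp. The difference between the arms in median change, 0.090 as reported, ran from 0.0087 to 0.18 when an array was left out. Uncalled members near 0 changed sign. Nqo1 was at -0.064 with array medians, -0.0079 with quantile normalization, -0.011 with the authors' values and -0.0036 with array weights. Gclm was at -0.027 with array medians, and Ahrr at 0.089 with probes averaged and 0.014 with normexp. When an array was left out, Nqo1 ran from -0.081 to 0.12, Gclm from -0.035 to 0.12, Hmox1 from -0.0041 to 0.26 and Ahrr from -0.46 to 0.20. With no filter more genes were adjusted for, and leaving out an array tests fewer samples. The Ahrr average takes in a probe that was not above background on any array. The cause of the other changes was not tested. Same-numbered samples share a slide column, and no label says that they share a mouse, litter or day. The correlations of their deviations from group means were 0.487, -0.165, 0.287 and 0.18 for numbers 1 to 4. Of the E7386 samples only replicate 1 correlated best with its own number. E7386 replicates 2, 3 and 4 correlated best with vehicle replicates 1, 4 and 2, at 0.228, 0.383 and 0.271. Vehicle replicates 1 and 3 correlated best with their own number, and vehicle replicates 2 and 4 did not. The block left 59 called genes (50 higher, 9 lower), 52 of them among the 284.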
